A study of Homo sapiens with 15 samples.

Results

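The transcripts of 37 genes of the lysosome and of autophagy were followed in HepG2, an established human hepatocellular carcinoma line, after transfection with a reporter mRNA in lipid nanoparticles. The genes were taken by name: 8 proteases, 8 glycosidases, 6 genes of lipid breakdown and transport, 5 genes of membrane proteins, 5 genes of the proton pump, 2 transcription factor genes and 3 autophagy genes. All 37 had enough counts to be tested, among 18380 tested genes of 41412 rows. Each of 5 groups held 3 libraries, labelled as biological replicates of wild-type cells. In 4 groups the cells were given 1 µg of an mRNA for the reporter eGFP, a green fluorescent protein, and lysed after 48 h. This mRNA was non-cloaked, or had been treated ("cloaked") with a reagent named CR-3 at a weak grade (0.1 M, 0.5 h, 25 °C), a medium grade (0.5 M, 1 h, 30 °C) or a strong grade (1 M, 2 h, 37 °C). The fifth group was untransfected. The cells are called here non-cloaked, weak-cloaked, medium-cloaked, strong-cloaked and untransfected cells after what they were given. No group received particles without mRNA, so particle and mRNA cannot be told apart, and reagent concentration, time and temperature differ together between grades. A row for the eGFP reporter was not analysed here.

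Lysosomes are acidic organelles in which hydrolases digest proteins, glycans and lipids delivered by endocytosis and by autophagy. A proton pump, the V-ATPase, acidifies the lumen, and heavily glycosylated membrane proteins line the boundary. Many lysosomal genes carry an E-box, the CLEAR element, at their start and are targets of the related transcription factors TFEB and TFE3, which the kinase complex mTORC1 keeps in the cytoplasm while nutrients are plentiful. Lipid nanoparticles enter cells by endocytosis, and cargo that does not reach the cytosol passes to lysosomes.

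Library totals ran from 57128519 to 78548789 counts. The library weak-cloaked replicate 1 differed from the rest of its group. On the first principal component of all tested genes (21.1% of the variance) it lay at -51.6, where the other 11 transfected libraries lay between -7.81 and 44.1 and the untransfected libraries between -70.5 and -68.6. Counts and medians that rest on it are therefore also given without it. The 10 hepatocyte markers checked summed to between 15252 and 20950 CPM, counts scaled to library size, in the 15 libraries. The 11 macrophage and leukocyte markers summed to between 9.92 and 19.3 CPM, with the macrophage receptor gene CD163 at 0 in every library and the pan-leukocyte gene PTPRC at 0.109 CPM or less. The 10 fibroblast and endothelial markers summed to between 16.9 and 24.7 CPM, with THY1 at 0 in every library.

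Promoter stretches with an E-box are shown first, because the TFEB and TFE3 family binds this motif and because 4 of the genes that changed hold one. RefSeq promoters (GRCh38.p14) could be matched to 28 of the 37 genes. The palindromic E-box, letters CACGTG, was searched in the 250 bases before each start, where 1 strand covers both. It was present for 8 of the 28 genes (28.6%), and in 6.34% of 35116 RefSeq promoters. The longer TCACGTGA, which contains the E-box and is the core of the CLEAR element, was present for 5 of the 28 (17.9%) and in 0.854% of all promoters. These shares describe the sequences only. They are also counted differently: the 28 genes have 43 promoters, and a gene counts if any of its promoters holds the motif. The share over all promoters is per promoter. Each stretch below runs 5′ to 3′ on the strand of its gene, with the motif in capitals and up to 20 bases to either side.
CTSD (chr11:1763949-1763994, minus strand): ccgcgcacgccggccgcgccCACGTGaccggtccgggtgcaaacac
NEU1 (chr6:31862922-31862967, minus strand): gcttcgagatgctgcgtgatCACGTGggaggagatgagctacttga
CD63 (chr12:55729164-55729209, minus strand): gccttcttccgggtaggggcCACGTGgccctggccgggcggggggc
CTSA (chr20:45891289-45891334, plus strand): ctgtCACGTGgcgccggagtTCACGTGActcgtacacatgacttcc
GAA (chr17:80101484-80101531, plus strand): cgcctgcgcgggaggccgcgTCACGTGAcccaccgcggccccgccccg
LAMP1 (chr13:113297190-113297237, plus strand): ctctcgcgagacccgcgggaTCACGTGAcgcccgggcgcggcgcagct
MCOLN1 (chr19:7522562-7522609, plus strand): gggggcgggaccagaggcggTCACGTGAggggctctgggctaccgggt
ATP6V0D1 (chr16:67481190-67481237, minus strand): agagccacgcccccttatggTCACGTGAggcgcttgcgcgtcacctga
The CTSD, NEU1 and CD63 stretches hold the E-box without the longer core, and the CTSA stretch holds both. These 4 genes were among 10 with a matched promoter that were called in transfected cells, as described next. GAA, LAMP1, MCOLN1 and ATP6V0D1 hold the longer core and were not called. A match of letters does not show binding. The starts used for this search are those of RefSeq. By the GENCODE positions used for gene coordinates here, the CTSD, CD63, CTSA and ATP6V0D1 stretches lie inside the gene.

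At baseline the 37 transcripts spanned a wide range. Levels between genes are compared per kilobase (kb) of the longest annotated transcript. In untransfected cells the aspartic protease gene CTSD led with 380.2 CPM per kb, followed by the cysteine protease gene CTSB with 305, the sphingolipid activator gene PSAP with 263, the tetraspanin gene CD63 with 159 and CTSH with 156 CPM per kb. CTSA and PPT1 came next with 115 and 99.2 CPM per kb. At the low end stood CTSZ, TFEB and SMPD1 with 3.63, 3.50 and 3.00 CPM per kb, and IDUA and MCOLN1 with 0.422 and 0.279. TFE3 was at 12.6 CPM per kb, above its relative TFEB. The highest and the lowest gene thus differed 1362-fold per kb. MCOLN1 had as few as 17 counts in a library, so counting error weighs on it.

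Transfection was followed by higher levels of many of these transcripts. Averaged over the 4 transfected groups, 13 of the 37 genes were higher than in untransfected cells and 1 was lower. The calls were made by the quasi-likelihood test of edgeR at an adjusted p below 0.05 (Benjamini-Hochberg, over all tested genes). Of all tested genes 23.1% were called in this comparison, 10.4% higher and 12.7% lower. The median log2 fold change was 0.34 over the 37 genes and -0.05 over all tested genes. Fold changes lay above 0 for 33 of the 37. They are relative to the bulk of tested genes: scaling by total counts moved the median of all genes by -0.23 on the log2 scale, left 25 of the 37 above 0 and called 6 higher and 2 lower, where 28.9% of all tested genes were called. In that scaling CTSD, NEU1, CD63, PSAP, NPC2 and TFE3 were still called higher. Without untransfected replicate 1, 6 of the 37 were called, where 13.1% of all tested genes were, and without untransfected replicate 2, 5 were, where 11.4% of all tested genes were. CTSD, NEU1, CD63 and PSAP were called in all 24 alternative analyses, including each library left out in turn. PPT1 and NPC2 lost the call in 1 of them, TFE3 in 2, CTSC in 3, HEXA, TPP1 and ATP6AP1 in 4, CTSA in 8 and CTSB in 11. These are bulk measurements, in which a change in the share of cells and a change in RNA per cell cannot be told apart.

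**Figure D1:**
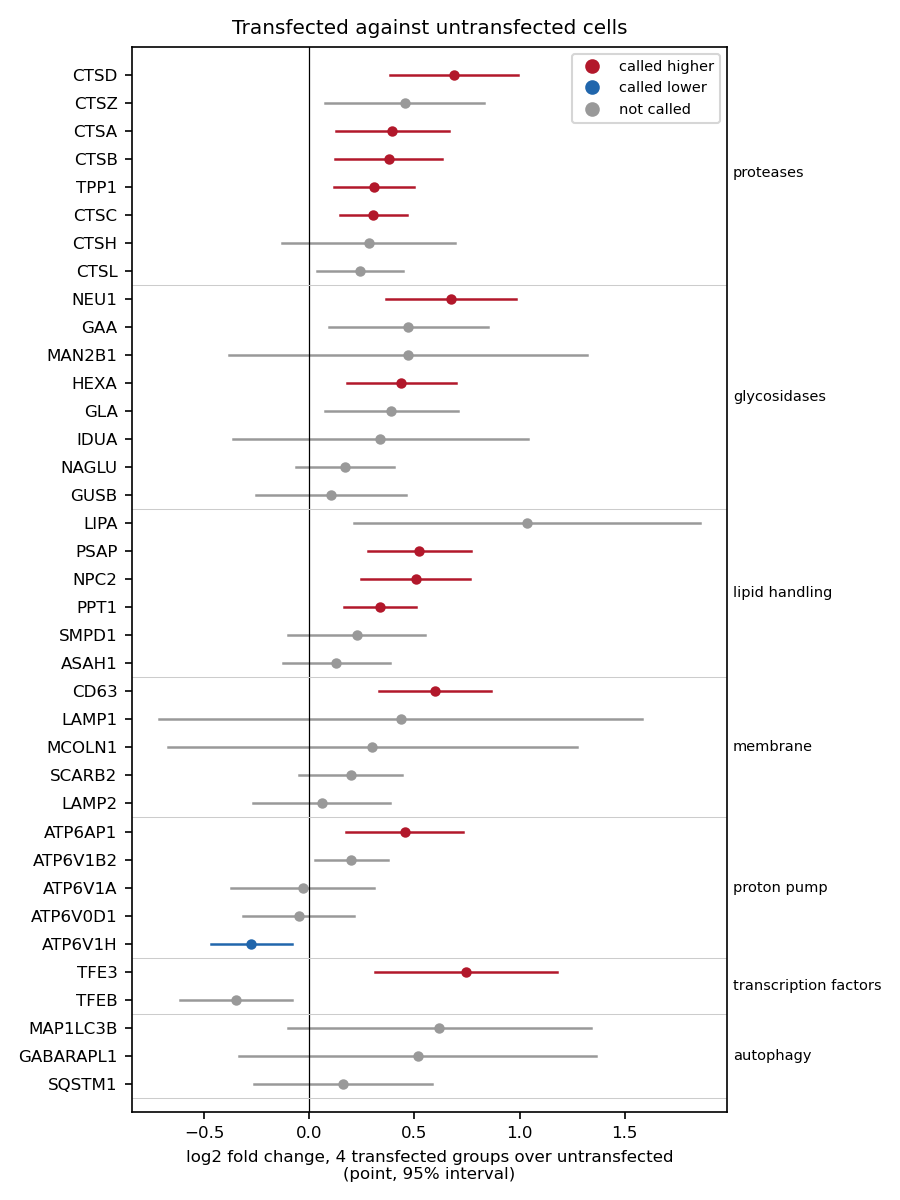
Log2 fold change of each of the 37 genes, mean of the 4 transfected groups over untransfected cells, as a point with its 95% interval, grouped by role; red marks genes called higher, blue the gene called lower, grey those not called. Proteases, glycosidases and lipid genes all lie above 0 with TMM scaling (GUSB, NAGLU, SMPD1 and ASAH1 do not with total-count scaling), while the proton pump genes lie on both sides.

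Among the 8 proteases, 5 were called higher, all 8 had positive fold changes, and the median was 0.34. CTSD, which encodes cathepsin D, the main aspartic protease of lysosomes (ENSG00000117984, chromosome 11, 1752752 to 1764573 on GRCh38), measured 1138, 1297 and 1509 CPM in non-cloaked cells, 843, 1294 and 1525 in weak-cloaked cells, 1207, 1277 and 1286 in medium-cloaked cells and 1325, 1354 and 1554 in strong-cloaked cells, against 795, 787 and 839 CPM in untransfected cells (replicates 1, 2 and 3 in each group). All 12 transfected libraries lay above all 3 untransfected ones, with weak-cloaked replicate 1 closest to them. Its log2 fold change was 0.69 ± 0.14 (SE, n = 12 and 3), a 1.61-fold higher level, with adjusted p = 0.00575 in edgeR's quasi-likelihood test. CTSC, the dipeptidyl peptidase that activates granule proteases, measured 195, 185 and 197 CPM in non-cloaked cells, 185, 214 and 207 in weak-cloaked cells, 216, 213 and 211 in medium-cloaked cells and 196, 212 and 204 in strong-cloaked cells, against 153, 159.6 and 180.2 CPM in untransfected cells. Its groups did not overlap either, at a smaller log2 fold change of 0.30 ± 0.07. CTSA encodes protective protein, a carboxypeptidase that stabilises beta-galactosidase and neuraminidase, and measured 416, 431 and 525 CPM in non-cloaked cells, 337, 479 and 532 in weak-cloaked cells, 461, 502 and 423 in medium-cloaked cells and 468, 469.8 and 525 in strong-cloaked cells, against 381, 356 and 321 CPM in untransfected cells. Only weak-cloaked replicate 1 fell inside the untransfected range, and the log2 fold change was 0.40 ± 0.12. CTSB, a cysteine protease, measured 1426, 1535 and 1505 CPM in non-cloaked cells, 1091, 1644 and 1823 in weak-cloaked cells, 1544, 1511 and 1579 in medium-cloaked cells and 1508, 1659.5 and 1609 in strong-cloaked cells, against 1112, 1142 and 1292 CPM in untransfected cells. Here weak-cloaked replicate 1 was lower than every untransfected library and the other 11 transfected libraries were higher, for a log2 fold change of 0.38 ± 0.12. TPP1, a tripeptidyl peptidase lost in a childhood neurodegenerative disease, measured 202, 229 and 210.1 CPM in non-cloaked cells, 176, 216 and 245 in weak-cloaked cells, 215, 223 and 221 in medium-cloaked cells and 227, 232 and 242 in strong-cloaked cells, against 174, 174 and 183 CPM in untransfected cells. It gave a log2 fold change of 0.31 ± 0.09, again with weak-cloaked replicate 1 alone inside the untransfected range. Adjusted p by the same edgeR test was 0.0115 for CTSC, 0.0353 for CTSA, 0.0349 for CTSB and 0.0236 for TPP1. The other cathepsin genes were not called: CTSZ had 0.45 ± 0.18, CTSL 0.24 ± 0.09 and CTSH 0.28 ± 0.19 on the log2 scale, with adjusted p between 0.0782 and 0.31 in edgeR. CTSH had 254 CPM in weak-cloaked replicate 1 and 249.7 CPM in strong-cloaked replicate 1, below all untransfected libraries, while the other 10 transfected libraries were above them.

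All 8 glycosidase genes had positive fold changes (median 0.41), 2 of which (GUSB and NAGLU) turned negative with total-count scaling, and 2 of them were called higher. NEU1, the lysosomal sialidase that trims sialic acid from glycoproteins (ENSG00000204386, chromosome 6, 31857659 to 31862906), measured 343, 371 and 439.9 CPM in non-cloaked cells, 252, 391 and 442 in weak-cloaked cells, 365, 388 and 387 in medium-cloaked cells and 363, 377 and 461 in strong-cloaked cells, against 257, 227 and 233 CPM in untransfected cells. Of the transfected libraries 11 lay above every untransfected one, and weak-cloaked replicate 1 lay within their range. The log2 fold change was 0.67 ± 0.14, 1.59-fold, with adjusted p = 0.00643 in edgeR's quasi-likelihood test. HEXA, the alpha subunit of the hexosaminidase that degrades GM2 ganglioside, measured 204, 243 and 251 CPM in non-cloaked cells, 173, 259 and 275 in weak-cloaked cells, 232, 247 and 255 in medium-cloaked cells and 243, 277 and 253 in strong-cloaked cells, against 185, 184 and 168 CPM in untransfected cells. Its log2 fold change of 0.44 ± 0.12 passed with adjusted p = 0.0206 by the same edgeR test. GAA, the acid alpha-glucosidase of glycogen breakdown, GLA, the alpha-galactosidase, and MAN2B1, an alpha-mannosidase, had 0.47 ± 0.18, 0.39 ± 0.15 and 0.47 ± 0.39 without passing. IDUA, NAGLU and GUSB, which degrade glycosaminoglycans, had 0.34 ± 0.33, 0.17 ± 0.11 and 0.10 ± 0.17, and their intervals included 0. The 6 glycosidase genes that were not called had adjusted p between 0.0683 and 0.698 in edgeR.

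Of the 6 lipid genes 3 were called higher, and the median log2 fold change was 0.42. All 6 were positive, and SMPD1 and ASAH1 turned negative with total-count scaling. PSAP, the precursor of the saposins that present sphingolipids to their hydrolases (ENSG00000197746, chromosome 10, 71816298 to 71851375), measured 1019, 1254 and 1106 CPM in non-cloaked cells, 788, 895 and 1153 in weak-cloaked cells, 1084, 1191 and 992 in medium-cloaked cells and 1058, 1270.2 and 1278 in strong-cloaked cells, against 759, 733 and 776 CPM in untransfected cells. The transfected and untransfected ranges did not overlap. The log2 fold change was 0.52 ± 0.11 with adjusted p = 0.00679 in edgeR's quasi-likelihood test. NPC2, the carrier that hands cholesterol out of the lysosomal lumen, measured 117, 121 and 132 CPM in non-cloaked cells, 96.0, 132 and 132 in weak-cloaked cells, 122, 131 and 130.3 in medium-cloaked cells and 110.3, 118 and 134 in strong-cloaked cells, against 97.3, 69.7 and 92.7 CPM in untransfected cells. Untransfected replicate 2 was the lowest of the 15, and without it the NPC2 call was lost (adjusted p = 0.0737, edgeR). PPT1, a thioesterase that removes fatty acids from proteins, measured 474, 465 and 464 CPM in non-cloaked cells, 415, 522 and 534 in weak-cloaked cells, 535, 538 and 556 in medium-cloaked cells and 471, 523 and 529 in strong-cloaked cells, against 396, 402 and 395 CPM in untransfected cells. The PPT1 groups did not overlap, and the untransfected libraries differed from each other by less than 8 CPM. Log2 fold changes were 0.51 ± 0.12 for NPC2 and 0.33 ± 0.08 for PPT1, with adjusted p = 0.0105 and 0.0106 in edgeR. The sphingomyelinase gene SMPD1 (0.23 ± 0.15) and the ceramidase gene ASAH1 (0.13 ± 0.12) were not called. LIPA, the acid lipase of cholesteryl ester breakdown, had the highest fold change of all 37 but was not called, and its values are given beside those of LAMP1.

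Of the 5 membrane protein genes only CD63 was called. CD63 encodes a tetraspanin of late endosomes and exosomes (ENSG00000135404, chromosome 12, 55725323 to 55729707) and measured 270.3, 304 and 347 CPM in non-cloaked cells, 210.1, 293 and 348 in weak-cloaked cells, 275, 292 and 288 in medium-cloaked cells and 306, 315 and 320.3 in strong-cloaked cells, against 213, 189.8 and 187 CPM in untransfected cells. Weak-cloaked replicate 1 lay within the untransfected range and all other transfected libraries above it. The log2 fold change was 0.60 ± 0.12, 1.51-fold, with adjusted p = 0.00582 in edgeR's quasi-likelihood test. LAMP2, a major glycoprotein of the lysosomal membrane that also serves chaperone-mediated autophagy, measured 187, 157 and 145 CPM in non-cloaked cells, 172, 198 and 167 in weak-cloaked cells, 208, 211 and 201 in medium-cloaked cells and 169, 172 and 215 in strong-cloaked cells, against 136, 146 and 244 CPM in untransfected cells. The highest value was in untransfected replicate 3 and the lowest in untransfected replicate 1, and the log2 fold change of 0.06 ± 0.15 (adjusted p = 0.818, edgeR) turned to -0.17 with total-count scaling. It was -0.094 without untransfected replicate 1, -0.057 without replicate 2 and 0.37 without replicate 3, which missed the threshold (adjusted p = 0.0656, edgeR). SCARB2, the receptor that carries glucocerebrosidase to lysosomes, had 0.20 ± 0.11, a difference that turned negative with total-count scaling. MCOLN1, the calcium channel mucolipin 1, had 0.30 ± 0.45 at a mean of 0.805 CPM in the transfected and 0.629 CPM in the untransfected libraries. Neither was called.

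The 5 proton pump genes did not move together, and their median log2 fold change was -0.03. ATP6AP1, an accessory subunit needed for assembly of the pump, measured 156, 181 and 192 CPM in non-cloaked cells, 113, 169.5 and 189 in weak-cloaked cells, 154, 189 and 185 in medium-cloaked cells and 175, 192 and 202 in strong-cloaked cells, against 124, 132 and 125 CPM in untransfected cells. Its log2 fold change was 0.45 ± 0.13 with adjusted p = 0.0241 in edgeR's quasi-likelihood test, and weak-cloaked replicate 1 was the one transfected library below the untransfected range. ATP6V1H, a regulatory subunit of the cytosolic V1 sector, measured 34.8, 32.3 and 29.9 CPM in non-cloaked cells, 32.4, 29.3 and 33.8 in weak-cloaked cells, 31.7, 31.6 and 30.3 in medium-cloaked cells and 30.2, 28.9 and 35.0 in strong-cloaked cells, against 35.5, 39.6 and 40.0 CPM in untransfected cells. All 12 transfected libraries were below all 3 untransfected ones, for a log2 fold change of -0.28 ± 0.09 and adjusted p = 0.0391 in edgeR. This is the 1 gene called lower, and its call was lost in 15 of 24 alternative analyses. The V1 subunit gene ATP6V1B2 had 0.20 ± 0.08, the catalytic subunit gene ATP6V1A -0.03 ± 0.16 and the membrane sector gene ATP6V0D1 -0.05 ± 0.12. None of these 3 was called, and with total-count scaling all 3 were below 0.

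The 2 transcription factor genes had fold changes of opposite sign. With each scaling tried TFE3 was above 0 and TFEB below it. TFE3 (ENSG00000068323, chromosome X, 49028726 to 49043486) measured 48.9, 69.0 and 54.7 CPM in non-cloaked cells, 41.3, 60.3 and 88.6 in weak-cloaked cells, 62.6, 92.0 and 81.9 in medium-cloaked cells and 81.0, 92.8 and 112 in strong-cloaked cells, against 46.0, 37.3 and 46.1 CPM in untransfected cells. For TFE3, 11 transfected libraries lay above the untransfected range and weak-cloaked replicate 1 within it. Its log2 fold change of 0.75 ± 0.20 was 1.68-fold, with adjusted p = 0.0183 in edgeR's quasi-likelihood test. TFEB (ENSG00000112561, chromosome 6, 41683978 to 41736259) measured 7.03, 8.17 and 9.22 CPM in non-cloaked cells, 7.14, 6.51 and 8.04 in weak-cloaked cells, 6.07, 5.54 and 6.52 in medium-cloaked cells and 8.18, 6.60 and 6.96 in strong-cloaked cells, against 9.31, 8.61 and 9.31 CPM in untransfected cells. For TFEB, 11 of 12 transfected libraries lay below the untransfected range, non-cloaked replicate 3 being the exception. The log2 fold change was -0.35 ± 0.12 and missed the threshold (adjusted p = 0.0581, edgeR), and passed without weak-cloaked replicate 1 (adjusted p = 0.0387). At the mean of the transfected groups TFE3 had 21.6 CPM per kb and TFEB 2.76. Transcript levels do not show where either protein is in the cell.

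None of the 3 autophagy genes was called, and all 3 varied widely between replicates. SQSTM1, the receptor p62 that links ubiquitylated cargo to autophagosomes, measured 350.3, 349 and 468 CPM in non-cloaked cells, 272, 262 and 326 in weak-cloaked cells, 239, 325 and 163 in medium-cloaked cells and 314, 279.8 and 175 in strong-cloaked cells, against 286, 223 and 265 CPM in untransfected cells. The 3 non-cloaked libraries were above every untransfected library, whereas the other grades overlapped with them. How many of all tested genes separate in this way was not counted. Over the 4 groups the SQSTM1 log2 fold change was 0.16 ± 0.20, between 0.06 and 0.24 with 1 library left out, and -0.07 with total-count scaling. MAP1LC3B, which encodes the autophagosome protein LC3B, measured 128, 70.9 and 58.8 CPM in non-cloaked cells, 102, 60.3 and 146 in weak-cloaked cells, 146, 116 and 66.4 in medium-cloaked cells and 121, 128 and 98.2 in strong-cloaked cells, against 37.3, 87.4 and 76.0 CPM in untransfected cells. Values ranged more than 2-fold within the non-cloaked, weak-cloaked, medium-cloaked and untransfected groups. GABARAPL1, a protein of the same family, measured 50.2, 80.2 and 40.9 CPM in non-cloaked cells, 26.2, 101 and 63.5 in weak-cloaked cells, 78.0, 37.7 and 80.6 in medium-cloaked cells and 32.1, 69.8 and 27.6 in strong-cloaked cells, against 43.9, 42.6 and 32.4 CPM in untransfected cells. Its weak-cloaked libraries alone ran from the lowest to the highest of all 15. Log2 fold changes were 0.62 ± 0.33 for MAP1LC3B and 0.51 ± 0.39 for GABARAPL1, with adjusted p = 0.2 and 0.374 in edgeR. Without untransfected replicate 1 that of MAP1LC3B was 0.33 ± 0.35 with adjusted p = 0.57 in edgeR.

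**Figure D2:**
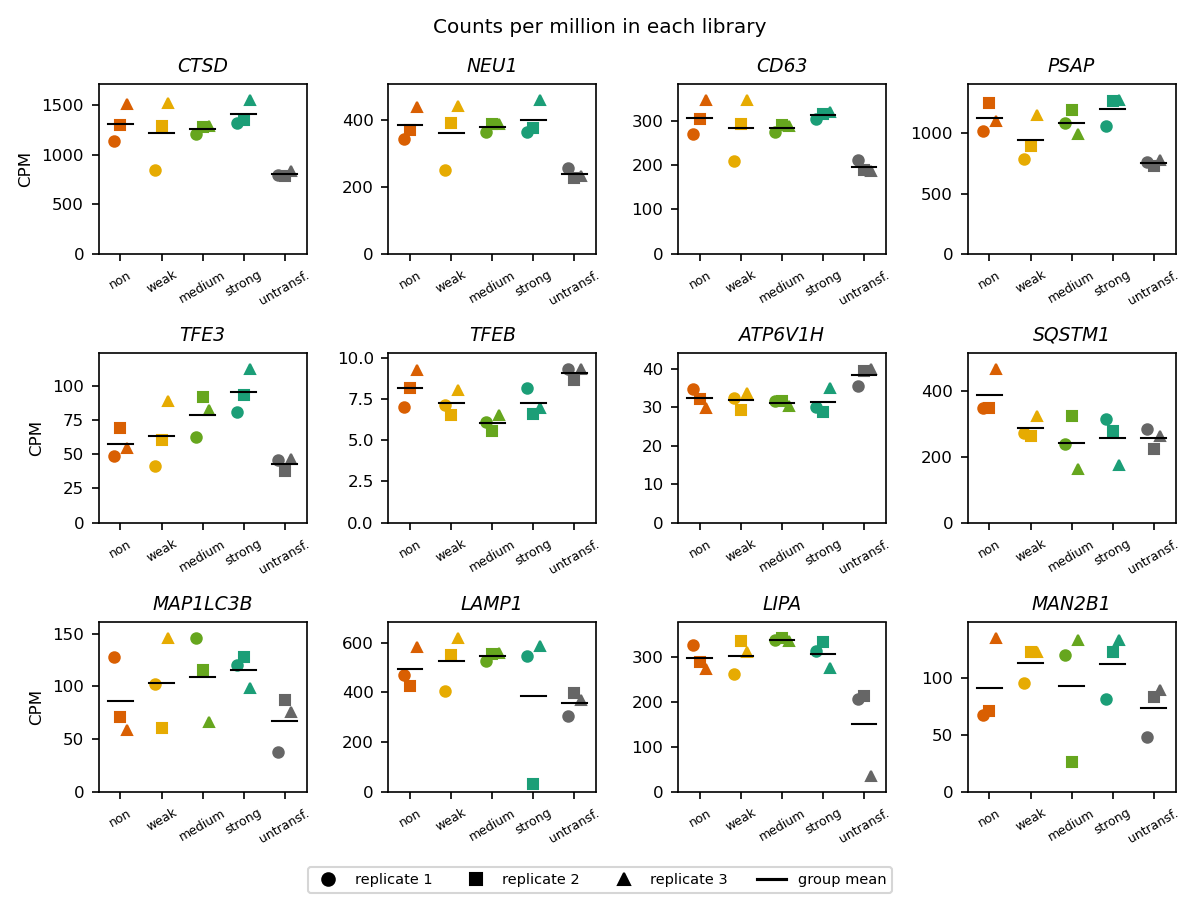
CPM (TMM-scaled, linear axis from 0) of 12 genes in each library, by group, with replicates as separate symbols and the group mean as a line. CTSD and PSAP sit above the untransfected libraries in all 12 transfected ones, NEU1 and CD63 in all but weak-cloaked replicate 1, TFEB and ATP6V1H mostly or wholly below them, and LAMP1, LIPA and MAN2B1 each have 1 library far under its replicates.

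Taken group by group against untransfected cells, the number of the 37 genes called ran from 0 to 12, while their median log2 fold changes lay between 0.32 and 0.36. The 4 comparisons share the same 3 untransfected libraries. Non-cloaked cells had 4 genes called, all higher (background 6.50% of all tested genes, 3.84% higher and 2.66% lower), with a median log2 fold change of 0.33. These were CTSD (0.70 ± 0.17), NEU1 (0.69 ± 0.17), CD63 (0.65 ± 0.15) and PSAP (0.58 ± 0.14). Weak-cloaked cells had none called (3.29% of all tested genes, 2.11% higher and 1.19% lower), with a median of 0.32. In these cells 16 of the 37 were at an unadjusted p below 0.05 in edgeR, as were 4151 of the 18380 tested genes. DESeq2 called 6 there, where it called 13.0% of all genes that it gave an adjusted p. Medium-cloaked cells had 8 called higher and 1 lower (13.7% of all tested genes, 6.25% higher and 7.49% lower), with a median of 0.36. Beside the same 4 genes as in non-cloaked cells these were PPT1 (0.45 ± 0.10), CTSC (0.38 ± 0.09), NPC2 (0.56 ± 0.15) and TFE3 (0.87 ± 0.24), and TFEB fell (-0.59 ± 0.16, adjusted p = 0.0307 in edgeR). Strong-cloaked cells had 12 called higher and none lower (15.1% of all tested genes, 7.99% higher and 7.11% lower), with a median of 0.32. TFE3 rose the most of these at 1.14 ± 0.24, 2.21-fold, and CTSD (0.81 ± 0.17), NEU1 (0.74 ± 0.17) and CTSZ (0.70 ± 0.22) followed. These counts are sensitive to single libraries: without non-cloaked replicate 2 or 3, or any one untransfected library, none was called in non-cloaked cells, where between 0.631% and 2.01% of all tested genes were called. In medium-cloaked cells 0 to 2 were called without any one of its own libraries or without untransfected replicate 1 or 2 (4.16% to 6.63% of all tested genes). In strong-cloaked cells 1 to 7 were called without any one of its own or of the untransfected libraries (3.86% to 9.34% of all tested genes). A call in one group and not in another does not show that the groups differ, and the direct comparisons are given below.

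Weak-cloaked replicate 1 stood apart, and leaving it out raised the counts of all 4 groups and of the pooled comparison. Taking each library against the mean of the untransfected libraries, the median over the 37 genes (log2 of CPM + 0.5) was 0.04 in weak-cloaked replicate 1 and between 0.25 and 0.46 in the other 11 transfected libraries. The untransfected libraries themselves lay between -0.04 and 0.05. It was the lowest of the 12 transfected libraries for all 13 genes called higher, and lay inside the untransfected range for 7 of them, above it for 4 and below it for 2. Without this library 15 genes were called in weak-cloaked cells, all higher, with a median log2 fold change of 0.40 (21.3% of all tested genes were then called, 10.1% higher). The pooled comparison then called 18, of which 16 were higher, with a median of 0.42 (31.5% of all tested genes). In the same fit, which shares 1 estimate of the spread among the groups, 11 were called in non-cloaked, 15 in medium-cloaked and 15 in strong-cloaked cells, where 16.5%, 20.1% and 22.3% of all tested genes were called. All 12 transfected libraries lay above all 3 untransfected ones for 5 of the 37 genes, namely CTSC, CTSD, PSAP, PPT1 and LIPA (5.12% of all tested genes), and below them for ATP6V1H (5.74%). With weak-cloaked replicate 1 left out, 16 of the 37 lay above (10.0% of all tested genes).

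**Figure D3:**
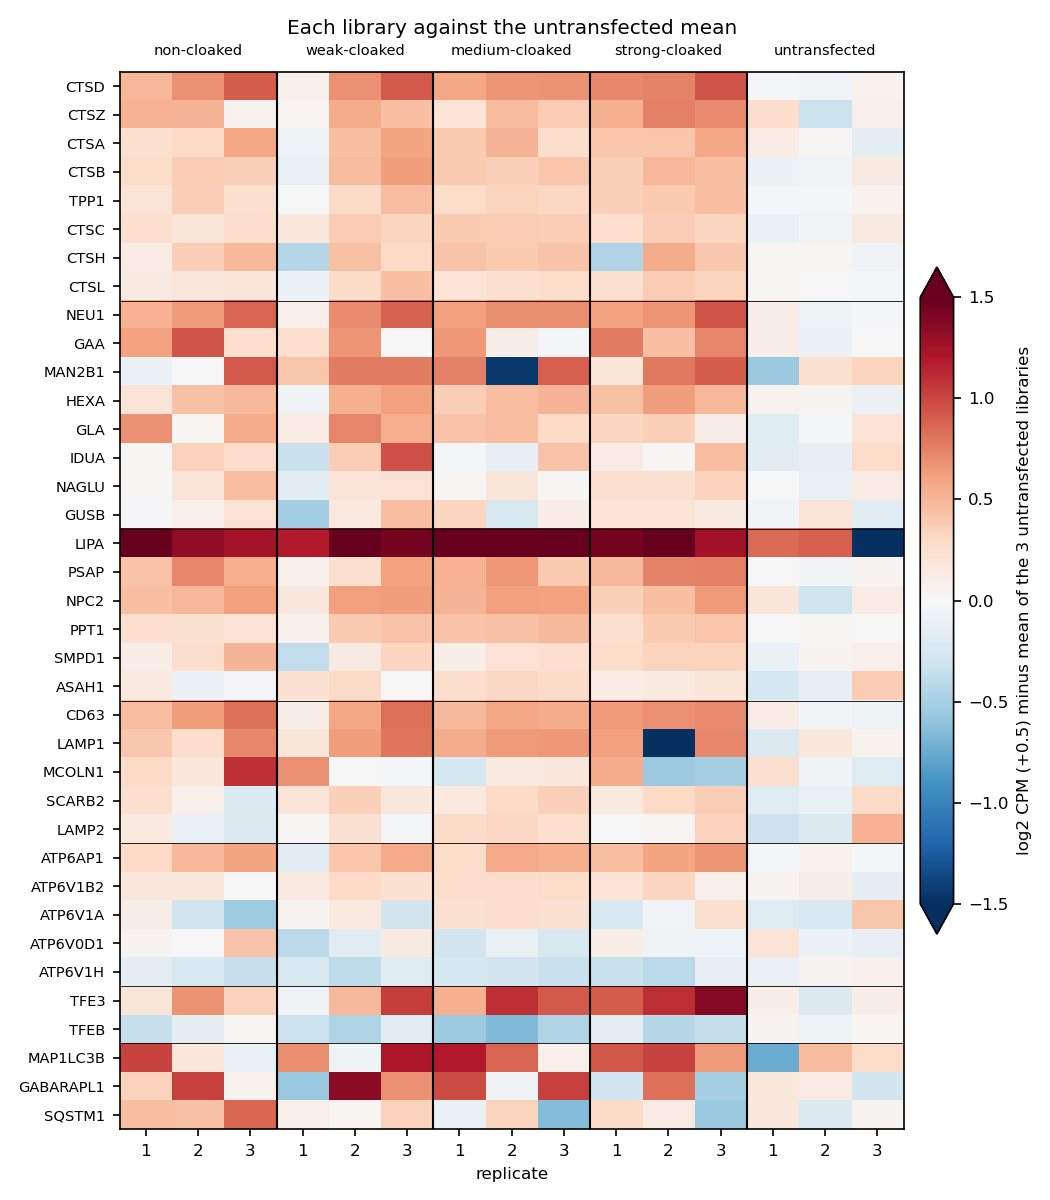
Each cell is the log2 CPM (+0.5) of a gene in a library minus its mean over the 3 untransfected libraries, red for higher and blue for lower, with groups as blocks of 3 replicates and genes grouped by role. Rows of CTSD, CTSA, CTSB, NEU1, PSAP and CD63 are red across the transfected blocks and near white or blue in weak-cloaked replicate 1, and single dark blue cells mark MAN2B1, LIPA and LAMP1.

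In 3 genes a single library was far below its replicates, and for 2 of them this decided the result. LAMP1, the other major membrane glycoprotein, measured 470.1, 426 and 584 CPM in non-cloaked cells, 404, 550.3 and 619 in weak-cloaked cells, 525, 553 and 557 in medium-cloaked cells and 544, 30.5 and 586 in strong-cloaked cells, against 305, 398 and 369.9 CPM in untransfected cells. In strong-cloaked replicate 2 it had 1940 counts, 19.2-fold under the highest library of its group. With all libraries its log2 fold change was 0.43 ± 0.53 (adjusted p = 0.598, edgeR's quasi-likelihood test), and without strong-cloaked replicate 2 it was 0.57 ± 0.14 with adjusted p = 0.0136. LIPA measured 327, 289.8 and 275 CPM in non-cloaked cells, 264, 336 and 311 in weak-cloaked cells, 338, 343 and 337 in medium-cloaked cells and 313, 333 and 277 in strong-cloaked cells, against 208, 214 and 33.9 CPM in untransfected cells. Untransfected replicate 3 had 2921 counts, and the 12 transfected libraries lay above the other 2 untransfected ones as well. With all libraries the LIPA log2 fold change was 1.04 ± 0.38 (adjusted p = 0.0672, edgeR), and without untransfected replicate 3 it was 0.56 ± 0.11 with adjusted p = 0.00842. So LIPA passed at a smaller difference once that library was left out. MAN2B1 measured 67.2, 71.4 and 135 CPM in non-cloaked cells, 95.5, 123 and 123 in weak-cloaked cells, 120.4, 25.8 and 133 in medium-cloaked cells and 81.1, 123 and 134 in strong-cloaked cells, against 48.4, 83.2 and 89.6 CPM in untransfected cells. Without its low library, medium-cloaked replicate 2, the log2 fold change was 0.58 ± 0.24, against 0.47 ± 0.39 with it, and neither passed (adjusted p = 0.112 and 0.422, edgeR). Gaps of 4-fold or more between replicates, at 100 or more counts in the higher library, thus occurred for 3 of the 37 genes and for 8.20% of all tested genes, or 6.03% of those at least as high as the third-lowest of the 37. They were picked out by this rule once their values were known. LIPA overlaps 6 other annotated genes and MAN2B1 overlaps 2, while LAMP1 overlaps none.

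Cloaking of the mRNA was examined by setting each cloaked group against non-cloaked cells. None of the 37 genes was called in any of the 3 comparisons, in a test for any difference among the 4 transfected groups or in a linear trend over the 4 grades, by edgeR's quasi-likelihood test or by DESeq2. The numbers of the 37 at an unadjusted p below 0.05 in edgeR were 0 for weak, 5 for medium and 2 for strong cloaking, 1 for any difference and 2 for the trend. Among the 18380 tested genes, 721, 1746, 663, 753 and 781 met this unadjusted threshold, in the same order. Of all tested genes edgeR called 0.00544% in the weak comparison and for any difference, and 0% in the medium and strong comparisons and the trend. The median log2 fold change over the 37 genes was -0.01 in weak-cloaked, 0.03 in medium-cloaked and 0.09 in strong-cloaked cells, where all tested genes had 0.02, -0.02 and 0.01. Without weak-cloaked replicate 1 the weak-cloaked median was 0.13, above the other grades (0.04 with medium and 0.09 with strong cloaking), where all tested genes had -0.01, -0.01 and 0.00477. None of the 37 was called then either, and CTSB, CTSL and PPT1 were at an unadjusted p of 0.0182, 0.0269 and 0.0334 in edgeR with weak cloaking. The 95% interval of a gene reached a median of 0.37 to either side of its fold change in each comparison. It lay wholly within 1 to either side of 0 for 31 of the 37 genes with weak cloaking, 29 with medium and 29 with strong. These intervals are not adjusted for the number of genes tested. With 3 libraries a group, differences smaller than them, and some larger ones, could not be called.

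**Figure D4:**
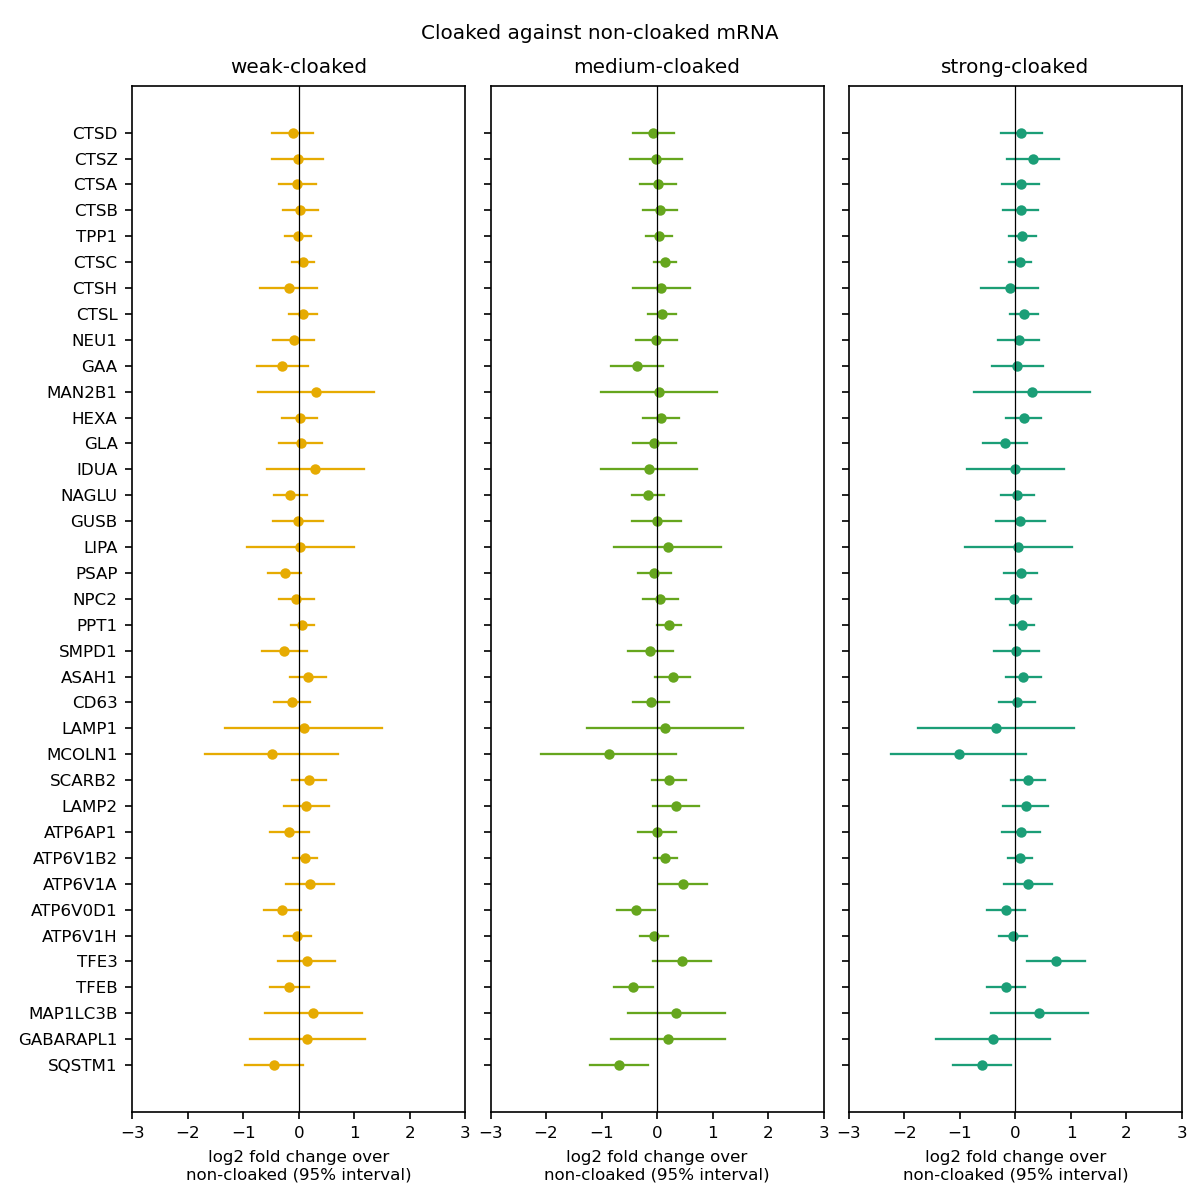
Log2 fold change of each of the 37 genes in weak-, medium- and strong-cloaked cells over non-cloaked cells, with its 95% interval. Most points lie near 0, TFE3 with strong cloaking (0.73) and SQSTM1 with medium and strong cloaking (-0.68 and -0.60) are among those with intervals that leave out 0, and none was called.

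The genes of smallest p in these comparisons were TFE3, SQSTM1 and MCOLN1 for the trend. TFE3 averaged 57.5 ± 10.3 CPM in non-cloaked, 63.4 ± 23.8 in weak-cloaked, 78.8 ± 14.9 in medium-cloaked and 95.3 ± 15.7 CPM in strong-cloaked cells (SD, n = 3 each). Its slope was 0.25 ± 0.08 per grade on the log2 scale (unadjusted p = 0.00589, adjusted p = 1 in edgeR). All 3 strong-cloaked libraries lay above all 3 non-cloaked ones, with a log2 fold change of 0.73 ± 0.24 (95% interval 0.21 to 1.25). SQSTM1 averaged 389 ± 68.2 CPM in non-cloaked, 287 ± 34.3 in weak-cloaked, 242 ± 81.2 in medium-cloaked and 256 ± 72.7 CPM in strong-cloaked cells. The slope was -0.21 ± 0.08 per grade (unadjusted p = 0.0198, adjusted p = 1 in edgeR), and all libraries of each cloaked group were below all 3 non-cloaked ones. These separations are of genes picked by smallest p. The share of all tested genes that separate in this way was not counted. MCOLN1 had a slope of -0.35 ± 0.18 (unadjusted p = 0.0738, adjusted p = 1 in edgeR) at levels of 0.753 to 1.89 CPM in non-cloaked and 0.267 to 1.15 CPM in strong-cloaked cells. Without weak-cloaked replicate 1 the slopes were 0.23 ± 0.06 for TFE3, -0.21 ± 0.08 for SQSTM1 and -0.30 ± 0.17 for MCOLN1, and that of MCOLN1 ran from -0.65 to -0.19 with 1 library left out. With medium cloaking, the other genes at an unadjusted p below 0.05 in edgeR were TFEB (-0.43 ± 0.16), ATP6V0D1 (-0.38 ± 0.16), ATP6V1A (0.46 ± 0.20) and PPT1 (0.22 ± 0.10), and their adjusted p began at 0.487.

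Within groups, some of the 37 transcripts varied together across libraries, and pairs among the highest are named here. After removing group means, the Pearson correlation over the 15 libraries was 0.964 for CTSD and NEU1, 0.951 for CTSD and SMPD1 and 0.937 for CTSD and CD63. Without weak-cloaked replicate 1 and untransfected replicate 3 these were 0.925, 0.858 and 0.886 over 13 libraries. Other pairs fell much further without these libraries, HEXA and PPT1 from 0.833 to 0.289 and CTSD and PPT1 from 0.814 to 0.279. The level for pairs of all tested genes was not computed. Another set followed LAMP2, with 0.912 for ATP6V1A, 0.899 for ASAH1 and 0.865 for SCARB2, and 0.941, 0.739 and 0.778 without the same libraries. CTSD and LAMP2 had a correlation of 0.0522, and -0.337 without the same libraries. The values of 2 genes come from the same libraries, each with its own depth and base composition, whose part in these correlations was not tested.

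Fold changes over all tested genes followed base composition, which was checked for the 37. In 4 equal bins of all tested genes by GC content of the longest transcript, low to high, the median log2 fold change was -0.30, -0.09, 0.06 and 0.13. The 6, 7, 11 and 13 of the 37 genes in these bins had medians of 0.16, 0.44, 0.43 and 0.34, above the median of all genes in each bin. The 37 had a median GC content of 52.8%, against 49.4% for all tested genes, and a median longest transcript of 3085 nt, against 3180.5 nt. With offsets for length and GC content, 18 of the 37 were called in the pooled comparison, 17 higher and 1 lower, where 24.2% of all tested genes were called, 13.1% higher. The one lower was TFEB in place of ATP6V1H. LAMP2, SCARB2, ASAH1 and ATP6V1B2 were then called higher as well.

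**Figure D5:**
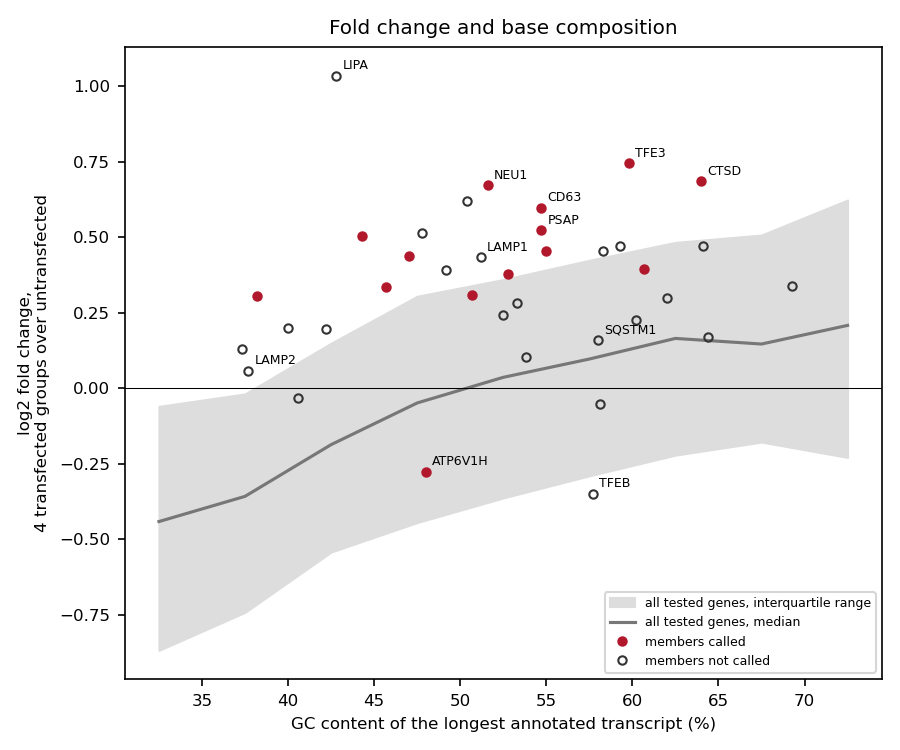
Log2 fold change (mean of the 4 transfected groups over untransfected cells) of the 37 genes against the GC content of their longest transcript, with the median and the interquartile range of all tested genes in bins of 5 percentage points. Most of the 37 points lie above the median line at their own GC content, and ATP6V1H and TFEB lie below it.

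Other genes of the same pathways were examined from lists drawn up by function, in the pooled comparison where 23.1% of all tested genes were called. Of 35 other lysosomal hydrolase genes, 11 rose and 2 fell, with a median log2 fold change of 0.28. GM2A, the activator that works with hexosaminidase on GM2 ganglioside, was at 0.59 ± 0.11, the phospholipase-like gene PLBD2 at 0.46 ± 0.10, the carboxypeptidase gene PRCP at 0.36 ± 0.08, and the acid phosphatase gene ACP2 at -0.73 ± 0.15. Of 25 other lysosomal membrane genes, 7 rose and 5 fell (median -0.26). The cystine exporter gene CTNS (-1.03 ± 0.18), the arginine sensor gene SLC38A9 (-1.03 ± 0.20) and the ion channel gene TPCN1 (-0.91 ± 0.19) fell, and LAPTM4B (0.43 ± 0.09) rose. CD68, a lysosomal glycoprotein widely used as a macrophage marker and named here after its value was seen, rose by 1.87 ± 0.40, and the 11 leukocyte markers, CD163 among them at 0, had none called among the 8 that could be tested. Of 21 other proton pump subunit genes, 7 rose and 1 fell (median 0.17), with ATP6V1E1 at 0.40 ± 0.08, ATP6V1F at 0.52 ± 0.12 and ATP6V0A4 at 1.16 ± 0.29, and the membrane sector gene ATP6V0A2 at -0.89 ± 0.16. Each of the genes named here passed edgeR's test. With total-count scaling, applied to these lists, like the omission of a library, after the data were seen, and where 28.9% of all tested genes were called and 17.8% of the calls were higher, the hydrolase list had 3 higher and 2 lower (median 0.05), the membrane list 3 and 10 (median -0.48) and the pump list 3 and 6 (median -0.07). Under it PRCP and ATP6V1E1 lost their calls. Without weak-cloaked replicate 1 the counts were 13 and 2, 8 and 6, and 7 and 3, where 31.5% of all tested genes were called, 13.8% higher.

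Genes of delivery to the lysosome, of autophagy and of lysosomal control went both ways. Of 10 genes of mannose 6-phosphate tagging and sorting, which send hydrolases to lysosomes, 1 rose (GGA1, 1.03 ± 0.28) and 1 fell (GGA3, -0.64 ± 0.15). Of 32 tested genes of autophagosome formation, 3 rose and 2 fell, with the conjugation gene ATG12 at 0.54 ± 0.11, the ULK complex gene ATG101 at 0.51 ± 0.15, the lipid transfer gene ATG2B at -1.16 ± 0.29 and the lipid kinase gene PIK3C3 at -0.81 ± 0.24. Of 15 other autophagy receptor genes none was called. Of 25 tested regulators of TFEB and TFE3 and genes of mTORC1, 5 rose and 3 fell. The Ragulator genes LAMTOR4 (1.16 ± 0.18) and LAMTOR5 (0.57 ± 0.11), which anchor mTORC1 to lysosomes, and the mTORC1 activator gene RHEB (0.39 ± 0.10) rose, and ZKSCAN3 (-0.85 ± 0.24), a repressor of autophagy genes, fell. Of 12 genes of the response to lysosomal damage, 3 rose and none fell, all 3 being galectins, which bind glycans exposed on ruptured vesicles. LGALS1 averaged 231 ± 31.9 CPM in the 12 transfected libraries and 67.5 ± 9.24 CPM in the 3 untransfected ones (SD). Its log2 fold change was 1.77 ± 0.15, with 0.75 ± 0.16 for LGALS3 and 0.67 ± 0.22 for LGALS9, and the edgeR test gave them adjusted p = 3.29e-05, 0.0062 and 0.0404. Of 10 hepatocyte markers, 3 rose and 2 fell, with ASGR1 at 0.59 ± 0.13, SERPINA1 at 0.46 ± 0.12, HNF4A at -0.66 ± 0.14 and APOB at -0.53 ± 0.14. Of 8 tested fibroblast and endothelial markers none rose and 2 fell, PDGFRB (-1.42 ± 0.23) and VWF (-1.24 ± 0.30). Total-count scaling called 28.9% of all tested genes, and 17.8% of those calls were higher. With total-count scaling the higher and lower counts were 1 and 2 for sorting, 0 and 6 for autophagosome formation, 0 and 2 for autophagy receptors, 2 and 6 for the regulators, 2 and 1 for lysosomal damage and 1 and 4 for hepatocyte markers. ATG12, ATG101, RHEB, LGALS9 and SERPINA1 lost their calls there, and LGALS1 kept its (log2 fold change 1.54). Without weak-cloaked replicate 1 autophagosome formation had 9 higher and 4 lower, lysosomal damage 5 and 1, the regulators 6 and 5 and the autophagy receptors 0 and 2. Calls over all tested genes rose there too, to 31.5%, with 13.8% higher. Whether these shifts of cell type markers play a part in the lysosomal results was not tested.

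Reads of overlapping genes limit some of these values, since the strand setting of the counting is not given in the sources used here. Of the 37 genes, 22 overlap at least 1 other annotated gene, and so do 9 of the 14 called. CTSA overlaps PLTP and NEURL2, HEXA overlaps the antisense gene HEXA-AS1, NPC2 overlaps ISCA2 and PPT1 overlaps CAP1. NEU1, TFE3, CTSC and ATP6AP1 overlap none.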

How the data were processed

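RNA of 15 HepG2 libraries was measured by sequencing of strand-specific, poly(A)-selected libraries (150 bp paired-end, NovaSeq), per the labels' protocols. The authors deposited 1 matrix of raw counts per gene symbol. The submitters' processing notes name HISAT2, HTSeq, DESeq2 1.46.0 and R 4.4.2, and GRCh38. Not given in the sources used here are the annotation release, the strand setting and the filter behind the matrix, so reads of overlapping genes are uncertain.

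Here counts were fitted in R 4.3.3 with edgeR 4.0.16: filterByExpr at its defaults (minimum count 10), TMM scaling, robust dispersions, and the quasi-likelihood fit of a separate mean for each group over all 15 libraries. Benjamini-Hochberg adjustment ran over all 18380 tested genes, and an adjusted p below 0.05 was a call. Groups and replicate numbers come from the titles. CPM are TMM-scaled, and a pseudocount of 0.5 was used for log2 CPM. At these depths the spread between replicates, not counting error, sets the precision of all but the lowest transcripts. Replicate pairs differed by far more than sampling noise.

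Alternatives were DESeq2 1.42.0, RLE and total-count scaling, other filters, a replicate block, non-robust dispersions, a fit of only the groups compared, loess offsets (span 0.3) for transcript length and GC content, and each library left out in turn. The steps were tested on simulated data. Positions and lengths come from GENCODE 29 on GRCh38, promoters from RefSeq GRCh38.p14. The 37 genes, the pathway lists and the tests were chosen with earlier results of these data known. Values in every library are given for the genes called in the pooled comparison and for TFEB, TFE3, LAMP1, LAMP2 and the 3 autophagy genes. From each pathway list up to 4 called genes of smallest p are named, and in the cloaking comparisons the 3 genes of smallest p.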

Additional observations from a re-analysis of the deposited data

How the results depend on the processing

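In the pooled comparison of transfected with untransfected cells, 14 of the 37 genes were called, and the count was 8 with total-count scaling and between 5 and 18 with 1 library left out. Calls over all tested genes moved with the setting as well. In this comparison 23.1% were called in the main fit, 28.9% with total-count scaling and 30.1% with DESeq2. The shares were 24.2% with length and GC offsets, 24.7% with these and the block, and 31.5% without weak-cloaked replicate 1. In the main fit 6.50% of all tested genes were called in non-cloaked, 3.29% in weak-cloaked, 13.7% in medium-cloaked and 15.1% in strong-cloaked cells. Shares under other settings are not listed here for these 4 comparisons, except those given with the groups above. The counts below are to be read beside such shifts, and a changed count alone is no result about the 37 genes. For non-cloaked against untransfected cells the 4 calls became 7 with DESeq2, 10 with length and GC offsets plus the replicate block, and 0 to 4 with 1 of the libraries compared left out. For weak-cloaked cells the count of 0 became 6 with DESeq2, 6 with length and GC offsets, 6 with these and the block, 1 with the block alone, and 0 to 15 with 1 of the libraries compared left out. For medium-cloaked cells the 9 calls became 14 with DESeq2, 18 with length and GC offsets, 17 with these and the block, 17 in a fit of only the groups compared, and 0 to 8 with 1 of the libraries compared left out. For strong-cloaked cells the 12 calls became 7 with total-count scaling and 1 to 7 with 1 of the libraries compared left out. Counts of 0 for the cloaked against non-cloaked comparisons, the test of any difference and the trend remained 0 in every alternative run. The SQSTM1 log2 fold change in the pooled comparison was -0.066 with total-count scaling (adjusted p = 0.829, edgeR), and that of LAMP2 was -0.17 (adjusted p = 0.444), -0.094 without untransfected replicate 1, -0.057 without untransfected replicate 2 and 0.37 without untransfected replicate 3. The cause of these shifts was not tested, except that a fit with a library left out has fewer samples.

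Pairing of the libraries by replicate number was weak at most, and its absence is not shown. Same-numbered libraries of different groups had correlations of their deviations between -0.0635 and 0.174 over 30 pairs, 2 of them over 0.1. Libraries of other numbers had correlations between -0.137 and 0.113. Of the 15 libraries, 9 correlated best with their own number. With the replicate block the pooled comparison called 13 of the 37, where 23.4% of all tested genes were called. With 3 libraries a group, differences within the unadjusted intervals given for the cloaking comparisons, and some beyond them, could not be called.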
